A study of Mus musculus with 3 samples.

Results

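The S100 genes encode small cytosolic calcium-binding proteins of the EF-hand superfamily, and 7 of them were followed here through cells of the mouse subventricular zone: S100b, S100a1, S100a6, S100a10, S100a11, S100a13 and S100a16. They were chosen by symbol, with earlier results of these data known. Each symbol matched 1 row among the 27998 genes of the deposited matrices. Raw UMI counts (unique molecular identifiers, 1 per captured transcript 3′ end) came from 3 droplet libraries of adult mouse tissue dissected beside the lateral ventricle. The mice carried aSMACreERt2::Rosa26-tdTomato and the Sox2 reporter of B6;129S-Sox2tm2Hoch/J, on a background of 3/4 C57/Bl6 and 1/4 129S1SvlmJ. For 1 library 1200 cells were sorted as positive for both tdTomato and GFP. For the other 2, 1200 and 6000 cells were sorted as GFP-positive but tdTomato-negative. Every library was thus selected for Sox2-GFP, and the tdTomato gate rests on a tamoxifen-activated Cre under the smooth muscle actin promoter. The labels give 5 mice without saying whether each library had animals of its own. The spread between libraries behind the p-values may thus be technical. That spread was in effect pooled over genes, so the p-values largely do not reflect how far the libraries differ for a single gene.

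S100 proteins mostly act as dimers that change shape on binding calcium and then dock onto target proteins. Targets include annexins, the giant scaffold Ahnak, cytoskeletal proteins and calcium pumps. S100b protein is widely used to stain astrocytes and ependymal cells, the ciliated epithelium that lines the ventricle. In this niche, S100b staining is also used to tell mature astrocytes from the Gfap-positive stem cells that lie beneath the ependyma. S100a10 is the exception of the family, since it is held in a calcium-independent active form and pairs with annexin A2.

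The files list 314 barcodes and 788344 UMIs for the tdTomato-positive library, and 259 and 1127 barcodes with 929997 and 3593633 UMIs for the tdTomato-negative libraries 1 and 2. After filtering, 252, 256 and 1121 cells were kept, with medians of 2535, 2639.5 and 2401 UMIs. The tdTomato-positive library stood apart in its median share of mitochondrial UMIs, 8.27% against 3.22% and 3.38%, and has no replicate. No barcode was shared between the tdTomato-positive library and tdTomato-negative library 1, 1 barcode between it and tdTomato-negative library 2, and 2 between the tdTomato-negative libraries. Cells were clustered without any S100 gene or Gfap and named from marker lists. The ependymal-like class held 234 cells (177 tdTomato-positive, 12 and 45 tdTomato-negative), led by Ccdc153, Rarres2, Mia and Tmem212. The astrocyte-like class held 276 (16, 43 and 217), the dividing class 154 (0, 28 and 126) and the neuroblast-like class 361 (1, 49 and 311). Oligodendrocyte-like cells numbered 38 (14, 4 and 20) and oligodendrocyte precursor-like cells 68 (0, 18 and 50). S100 levels can still vary together with genes that drew the clusters, so a call between classes describes those classes.

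S100b lies on chromosome 10 (GRCm38, 76253853 to 76261159, plus strand), and the other members lie on chromosome 3 within 3.054 Mb. Of those, S100a1 (90511034 to 90514392, minus strand), S100a13 (90514435 to 90524581), S100a16 (90537254 to 90543151) and S100a6 (90612882 to 90624181) sit within 113.1 kb. S100a11 (93520488 to 93526287) and S100a10 (93555080 to 93564643) lie together 44.16 kb from end to end. All but S100a1 are on the plus strand, and all 7 are annotated as protein-coding in GENCODE M21. The 3′ end of S100b overlaps the antisense gene Dip2a by 1731 bases. Whether counting used the strand is not given in the sources used here, so reads from the overlap cannot be assigned with certainty.

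Promoter windows of RefSeq (GRCm38.p6, 250 bases before to 50 after the annotated start) were matched for 6 of the 7 members, not for S100a10. The window of S100a13 is shown because the starts of S100a13 and S100a1 face each other, with 42 bases between the annotated genes. Its capitals mark the 204 bases that it shares with the window of S100a1. Each window runs 50 bases past its RefSeq start, and the RefSeq start of S100a1 lies inside the gene as annotated above. The capitals thus hold the 42 bases between the genes and also bases inside both genes, more of them inside S100a1. It covers chr3:90514185-90514484 on the plus strand.

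S100a13: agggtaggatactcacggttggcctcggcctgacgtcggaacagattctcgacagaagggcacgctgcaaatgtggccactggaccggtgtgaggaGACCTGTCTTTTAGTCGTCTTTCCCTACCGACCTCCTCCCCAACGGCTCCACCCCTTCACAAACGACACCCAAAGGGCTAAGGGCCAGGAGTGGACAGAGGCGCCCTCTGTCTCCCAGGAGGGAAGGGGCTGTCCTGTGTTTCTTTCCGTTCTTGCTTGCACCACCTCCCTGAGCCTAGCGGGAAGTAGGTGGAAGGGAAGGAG

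The windows of S100a11, S100b and S100a6 are shown because these genes set ependymal cells and the 2 kinds of astroglia apart in the results that follow. Capitals mark matches, on either strand, to 6 short motifs. These were the AP-1 motif, searched as TGANTCA, the GC box, as GGGCGG, the TATA box, as TATAAA, and the CCAAT box, by the letters of its name. The NFI motif was searched as TTGGCA and the RFX motif as GTTGCC. The windows cover chr3:93520246-93520545, chr10:76253586-76253885 and chr3:90612644-90612943, all on the plus strand.

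S100a11: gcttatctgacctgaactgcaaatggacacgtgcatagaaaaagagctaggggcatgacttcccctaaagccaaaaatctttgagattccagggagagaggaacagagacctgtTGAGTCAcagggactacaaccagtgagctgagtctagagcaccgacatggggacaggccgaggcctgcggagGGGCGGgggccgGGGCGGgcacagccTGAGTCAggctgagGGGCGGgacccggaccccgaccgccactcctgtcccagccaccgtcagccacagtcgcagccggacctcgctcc

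S100b: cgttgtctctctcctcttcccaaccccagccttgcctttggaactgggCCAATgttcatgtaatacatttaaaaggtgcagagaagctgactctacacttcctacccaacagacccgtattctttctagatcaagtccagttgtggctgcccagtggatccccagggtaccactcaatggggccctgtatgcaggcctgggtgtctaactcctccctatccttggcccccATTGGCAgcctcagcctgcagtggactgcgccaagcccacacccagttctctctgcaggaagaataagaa

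S100a6: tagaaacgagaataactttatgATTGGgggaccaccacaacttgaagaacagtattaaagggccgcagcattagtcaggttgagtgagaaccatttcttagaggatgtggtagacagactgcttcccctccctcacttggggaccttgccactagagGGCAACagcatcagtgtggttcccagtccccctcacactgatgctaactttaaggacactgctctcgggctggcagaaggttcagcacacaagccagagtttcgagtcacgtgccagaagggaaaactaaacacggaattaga

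The S100a11 window held 2 AP-1 and 3 GC box matches. The S100b window held 2 CCAAT matches, 1 of which overlaps an NFI match, and the S100a6 window held 1 CCAAT and 1 RFX match. Among 32851 windows of the same length in the RefSeq table, 7.81% held an AP-1 match, 35.7% a GC box, 13.6% a TATA box, 37.4% a CCAAT box, 14.1% an NFI and 12.5% an RFX match. A match is a description of the letters and not a measured binding site.

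The 7 genes divided the classes unevenly. S100a11 was abundant in ependymal-like cells and near 0 in astrocyte-like and oligodendrocyte-like cells, S100a10 was highest in neuroblast-like cells, and S100a1 and S100a16 were highest in oligodendrocyte precursor-like cells. S100b and S100a13 were highest in that class too, but in its 51 Pdgfra-led cells alone they overlapped with ependymal-like (S100b) and astrocyte-like cells (S100a13). Levels below are CPM (UMIs of the gene per 1000000 UMIs of all genes, summed over the cells of a class in a library with at least 10 of them). They are given as mean ± SD over libraries. Counts of 3′ ends do not scale with transcript length. The 7 genes together took 3208 CPM in tdTomato-positive ependymal-like cells and 3070 and 3216 CPM in tdTomato-negative ones. They took 2395, 2593 and 2718 CPM in astrocyte-like cells of the same libraries and 6016 and 5269 CPM in tdTomato-negative precursor-like cells. In the dividing class they took 339 and 459 CPM, and in neuroblast-like cells 638 and 747 CPM. Ependymal-like, astrocyte-like and precursor-like cells thus did not overlap with the dividing and neuroblast-like classes in their summed S100 level. Ependymal-like cells held a median of 4 of the 7 members, astrocyte-like cells 3, dividing cells 2 and neuroblast-like cells 1, but depth differed: thinned to 1000 UMIs a cell, the medians were 2, 2, 0 and 0.

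**Figure D1:**
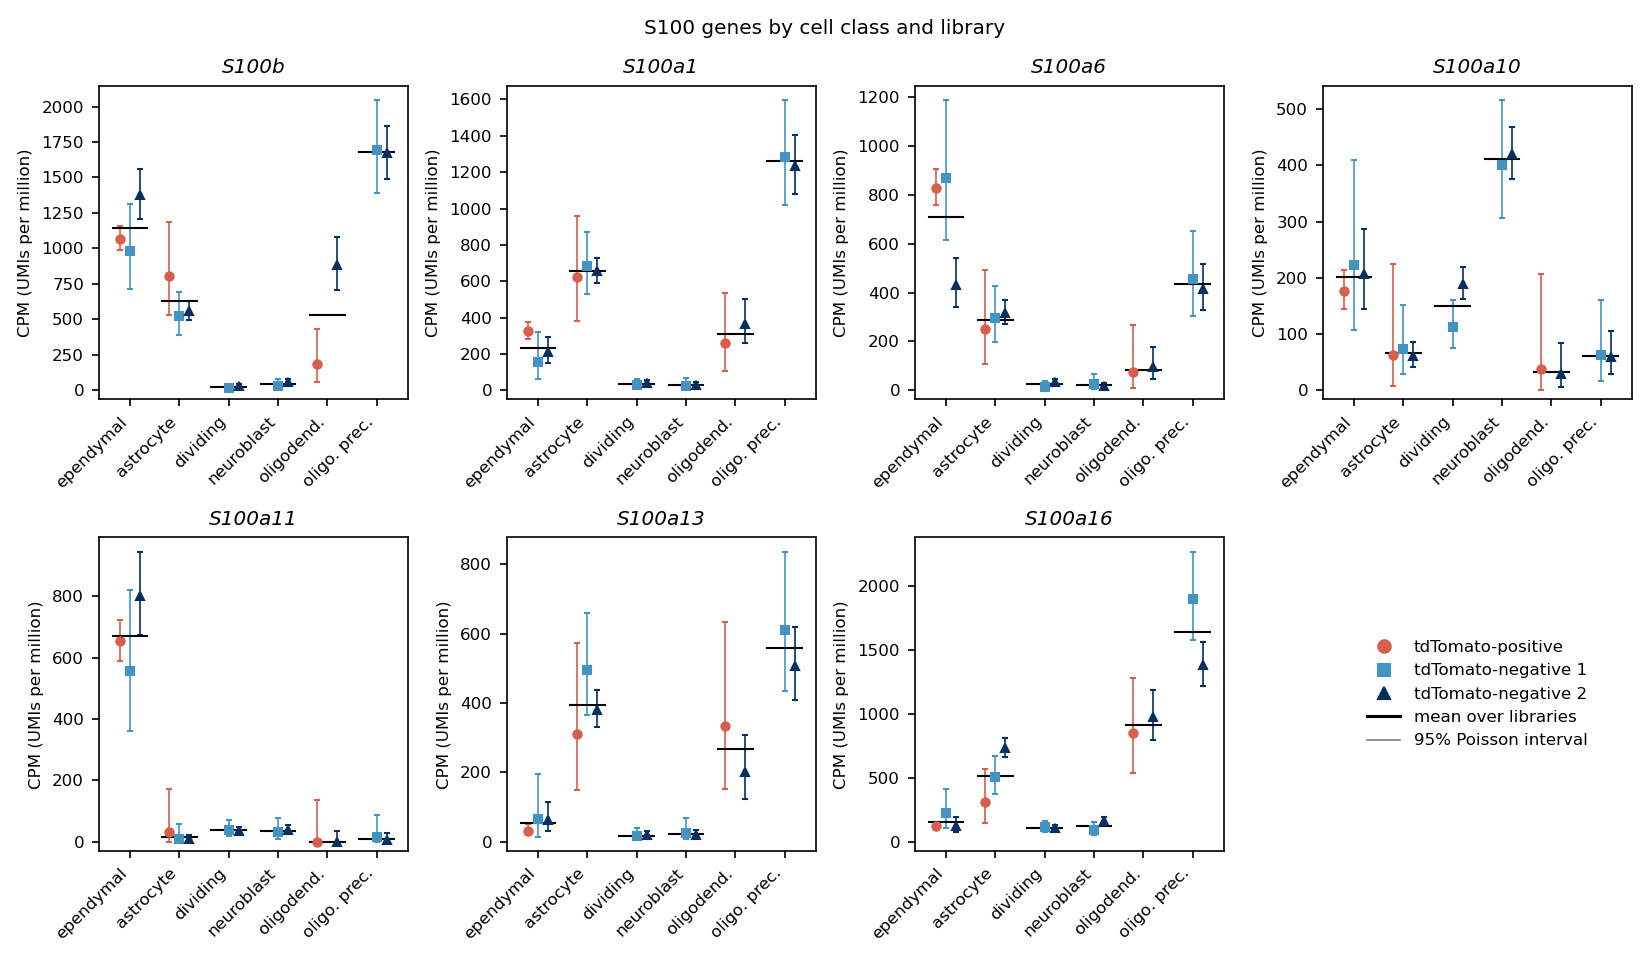
Level of each S100 gene (CPM, linear axis) in 6 cell classes; points are libraries with at least 10 cells of the class, whiskers exact 95% Poisson intervals and black lines means over libraries. S100a11 stands at 556 to 800 CPM in ependymal-like cells and at most 38.5 CPM in any other class shown, whereas S100a10 peaks in neuroblast-like cells.

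S100b, the glial marker of the family, averaged 1681 ± 15.9 CPM in precursor-like cells (n = 2), 1141 ± 208 in ependymal-like cells and 632 ± 154 in astrocyte-like cells (n = 3 each). It averaged 533 ± 492 CPM in oligodendrocyte-like cells, 46.7 ± 19.6 in neuroblast-like cells and 24.2 ± 12.5 in the dividing class (n = 2 each). The first 3 of these classes did not overlap between libraries, but the precursor value was raised by 17 Enpp6/Bmp4-led cells: the 51 Pdgfra-led precursors had 1012 and 1096 CPM, which overlapped with ependymal-like cells. Also, oligodendrocyte-like cells, at 185 and 881 CPM, overlapped with astrocyte-like cells. S100a1, best known as a regulator of calcium handling in heart muscle, averaged 1259 ± 36.2 CPM in precursor-like and 655 ± 31.5 in astrocyte-like cells. It averaged 312 ± 73.7 CPM in oligodendrocyte-like and 232 ± 86.9 in ependymal-like cells, which overlapped. It stood at 35.1 ± 6.07 CPM in the dividing class and 27.6 ± 1.89 in neuroblast-like cells.

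S100a6 (calcyclin), a partner of annexins and of the ubiquitin-ligase adaptor Cacybp, averaged 710 ± 242 CPM in ependymal-like, 435 ± 28.0 in precursor-like and 287 ± 34.9 in astrocyte-like cells. The 51 Pdgfra-led precursors alone had 202 and 212 CPM of S100a6, below every astrocyte library. S100a6 averaged 85.0 ± 15.3 CPM in oligodendrocyte-like cells, 24.2 ± 12.5 in the dividing class and 21.7 ± 6.50 in neuroblast-like cells. Ependymal-like and precursor-like cells overlapped, since tdTomato-negative library 2 had 431 CPM in ependymal-like cells. S100a13, which takes part in the unconventional release of Fgf1, averaged 558 ± 74.9 CPM in precursor-like, 396 ± 93.1 in astrocyte-like and 268 ± 93.9 in oligodendrocyte-like cells. The Pdgfra-led precursors alone had 303 and 510 CPM, which overlapped with astrocyte-like cells. S100a13 was low elsewhere, at 54.1 ± 19.0 CPM in ependymal-like, 23.0 ± 4.63 in neuroblast-like and 17.3 ± 2.66 in dividing cells. S100a16, a broadly expressed member, averaged 1639 ± 363 CPM in precursor-like, 915 ± 87.5 in oligodendrocyte-like and 517 ± 211 in astrocyte-like cells. It averaged 157 ± 57.1 CPM in ependymal-like, 127 ± 49.5 in neuroblast-like and 111 ± 1.44 in dividing cells, and neuroblast-like cells overlapped with both others.

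S100a10, the annexin A2 partner, ran the other way. It averaged 411 ± 13.4 CPM in neuroblast-like cells, 202 ± 23.2 in ependymal-like cells and 151 ± 55.1 in the dividing class, against 65.7 ± 6.98 in astrocyte-like, 60.6 ± 2.96 in precursor-like and 32.9 ± 5.91 in oligodendrocyte-like cells. Ependymal-like and dividing cells overlapped, as did astrocyte-like and precursor-like cells. It made up 62.9% and 56.3% of the S100 UMIs of neuroblast-like cells in tdTomato-negative libraries 1 and 2. S100a11 (calgizzarin), which binds annexin A1, averaged 670 ± 123 CPM in ependymal-like cells. It averaged 36.9 ± 2.39 CPM in the dividing class, 35.5 ± 3.76 in neuroblast-like, 17.0 ± 12.3 in astrocyte-like and 10.5 ± 7.32 in precursor-like cells. Both oligodendrocyte-like sums had 0 UMIs of it. The lowest ependymal library, at 556 CPM, lay far above the highest library of the other 5 classes, at 38.5 CPM.

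**Figure D2:**
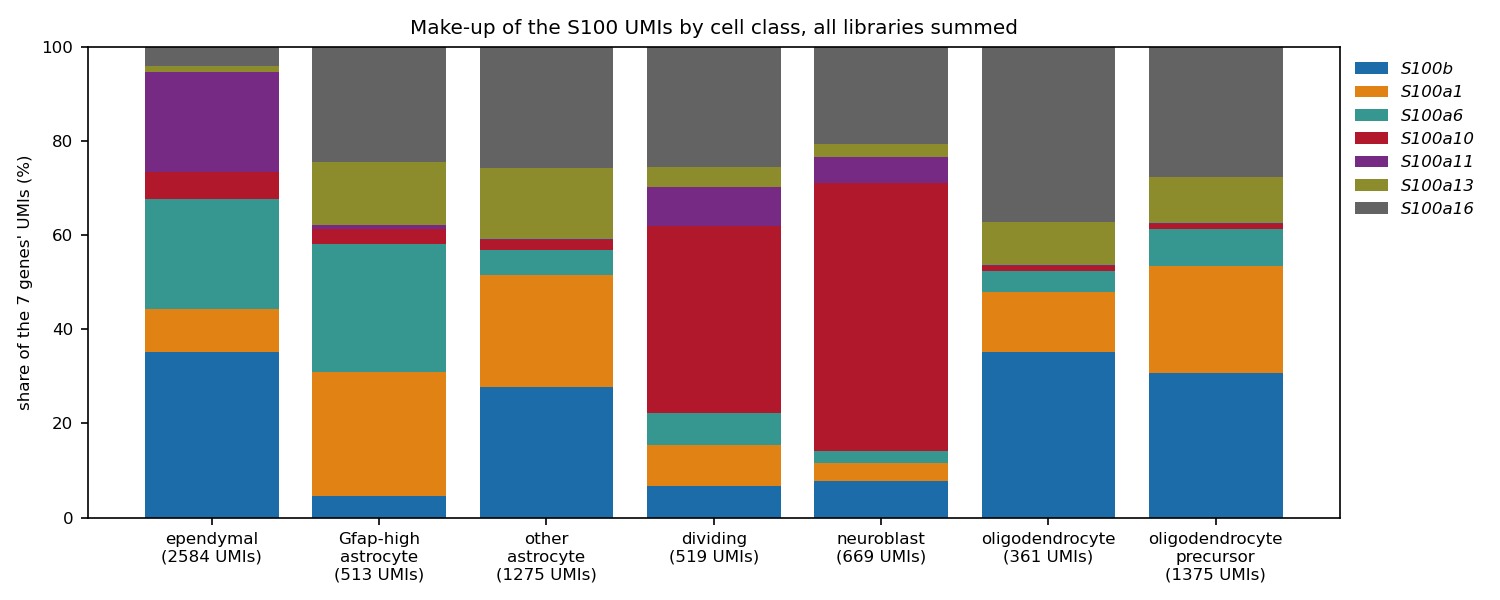
Share of each gene in the UMIs of the 7 S100 genes together (percent, stacked to 100), by class, libraries summed; astrocyte-like cells are drawn as their cluster of high Gfap and their other cluster. S100a11 takes 21.2% of the ependymal-like pool, against 0.780% and 0.235% of the pools of Gfap-high and other astrocyte-like cells, and S100a10 takes 56.95% of the neuroblast-like pool.

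The first comparison asks how ependymal cells differ from astroglia, the neighbouring cells with which they share S100b staining. All 7 members were called between the classes (4 higher and 3 lower in ependymal-like cells), where 27.1% of the 4104 genes tested were called (17.1% higher, 10% lower). The calls come from edgeR's quasi-likelihood test with library as a block and Benjamini-Hochberg adjustment over all genes tested at 0.05. The median log2 fold change of the 7 was 1.08, against 0.08 over all genes tested. Because the members were chosen with earlier results of these data known, neither the count nor the median tests the family. S100a11 had 653 CPM in tdTomato-positive ependymal-like cells and 556 and 800 CPM in tdTomato-negative ones, against 31.1, 10.5 and 9.28 CPM in astrocyte-like cells of those libraries. The groups did not come near each other, and the 7 astrocyte UMIs came from 7 of 276 cells. The log2 fold change was 5.92 ± 0.42 (SE, edgeR adjusted p = 4.04e-42).

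S100a10 had 177, 222 and 207 CPM in ependymal-like cells, against 62.2, 73.8 and 61.2 CPM in astrocyte-like cells. Each ependymal library lay above every astrocyte library, and S100a10 rose by 1.64 ± 0.38 on the log2 scale (edgeR adjusted p = 0.00011). S100a6 had 830, 868 and 431 CPM, against 249, 295 and 317 CPM in astrocyte-like cells, a log2 fold change of 1.08 ± 0.25 (edgeR adjusted p = 0.000173). S100b had 1069, 979 and 1375 CPM, against 809, 527 and 560 CPM, a log2 fold change of 1.08 ± 0.24 (edgeR adjusted p = 7.05e-05). For both, every ependymal library lay above every astrocyte library, although the marker S100b was shared by the classes: 85.9% of ependymal-like and 58.7% of astrocyte-like cells held a UMI of it.

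The neighbours S100a1, S100a13 and S100a16 went the other way. S100a13 had 32.3, 66.7 and 63.3 CPM in ependymal-like cells, against 311, 495 and 380 CPM in astrocyte-like cells, and fell by 2.85 ± 0.35 on the log2 scale (edgeR adjusted p = 1.78e-14). S100a16 had 121, 222 and 127 CPM, against 311, 506 and 733 CPM, a log2 fold change of -1.80 ± 0.29 (edgeR adjusted p = 1.13e-08). S100a1 had 326, 156 and 213 CPM, against 622, 685 and 657 CPM, a log2 fold change of -1.27 ± 0.26 (edgeR adjusted p = 1.69e-05). For each of the 3 genes, every astrocyte library lay above every ependymal library. S100a13 and S100a1, whose starts face each other, were both lower in ependymal-like cells in 3 of 3 libraries, and so was S100a16.

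DESeq2 kept 6 of the 7 calls and lost S100b (log2 fold change 0.81, adjusted p = 0.121). Without tdTomato-negative library 2, S100b (0.54, edgeR adjusted p = 0.317) and S100a10 (1.41, edgeR adjusted p = 0.119) were no longer called, and without tdTomato-negative library 1, S100a1 (-1.10, edgeR adjusted p = 0.0604) and S100a6 (1.06, edgeR adjusted p = 0.0815) were not. Median depth was 3284, 4069 and 4304 UMIs in ependymal-like cells, against 2109.5, 2155 and 2401 in astrocyte-like cells, and median mitochondrial shares were 9.11%, 6.32% and 7.29%, against 8.88%, 4.79% and 4.77%. Thinned to 1000 UMIs a cell, 44.4% of ependymal-like and 0.752% of astrocyte-like cells held S100a11, where 75.2% and 2.54% did as counted. Ependymal markers summed to 1773, 453 and 295 CPM in astrocyte-like cells, against 18130 to 20762 CPM in ependymal-like cells. The tdTomato-positive astrocyte-like cells were thus highest in ependymal markers, while their S100a11 level rests on 1 UMI (95% interval 0.788 to 173 CPM) and cannot be ranked. The part of free or mixed RNA in these values was not tested.

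**Figure D3:**
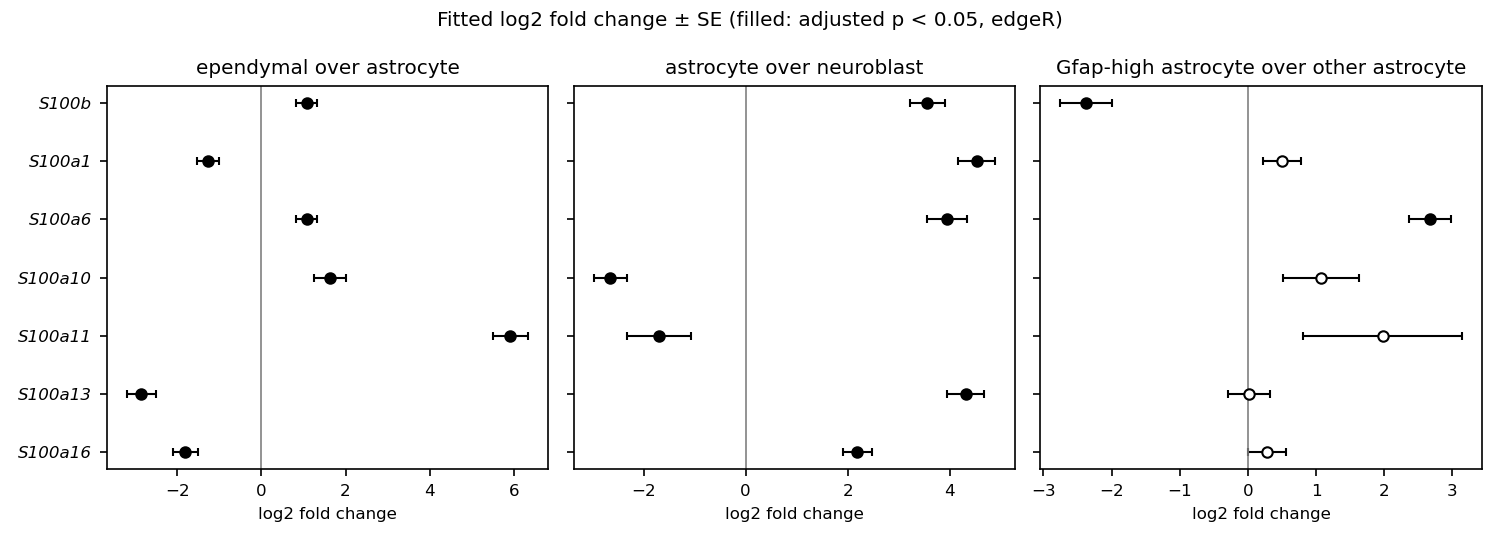
Fitted log2 fold change of the 7 genes with SE (whiskers) in 3 comparisons; filled points passed adjusted p < 0.05 in edgeR, open points did not. S100a11 is the far point at 5.92 for ependymal over astrocyte, and S100a6 and S100b move in opposite directions between the 2 kinds of astroglia.

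Single ependymal-like cells often held several of the abundant members. Of 234 cells, 166 held UMIs of both S100b and S100a11, 35 of S100b alone, 10 of S100a11 alone and 23 of neither. S100b and S100a6 were both found in 140 cells. Each of these genes was frequent by itself, and whether they occur together more often than that was not tested. The highest single-cell counts were 18 UMIs of S100b, 16 of S100a6 and 11 of S100a11. No more than 3 UMIs of S100a13 or S100a16 were found in an ependymal-like cell.

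The second comparison sets the neurogenic classes apart from glia. Against neuroblast-like cells, astrocyte-like cells had 5 members higher and 2 lower, where 36.2% of genes were called (19.6% higher, 16.5% lower). S100a1 rose the most, with 685 and 657 CPM in astrocyte-like cells against 26.3 and 29.0 CPM in neuroblast-like cells of tdTomato-negative libraries 1 and 2 (log2 fold change 4.53 ± 0.36, edgeR adjusted p = 3.76e-34). S100a13 rose by 4.31 ± 0.37, S100a6 by 3.94 ± 0.39, S100b by 3.56 ± 0.34 and S100a16 by 2.19 ± 0.29 on the log2 scale. S100a10 had 73.8 and 61.2 CPM, against 401 and 420 CPM in neuroblast-like cells, and fell by 2.65 ± 0.33 (edgeR adjusted p = 1.14e-14). S100a10 thus set neuroblast-like cells, 56.0% of which held a UMI of it, apart from astrocyte-like cells, at 12.3%. It was not particular to them, since 63.6% of the deeper dividing cells and 42.3% of ependymal-like cells held one. S100a11 also fell, by 1.69 ± 0.63 (edgeR adjusted p = 0.0217), but on 7 and 36 UMIs in all: DESeq2 gave -1.53 (adjusted p = 0.146), and it was not called without tdTomato-negative library 1 (-1.75, edgeR adjusted p = 0.12) or library 2 (-1.21, edgeR adjusted p = 0.556), without the filter on low counts (-1.74, edgeR adjusted p = 0.0532) or at clustering resolutions of 0.5 and 2.0 (-1.18 and -1.15, edgeR adjusted p = 0.0705 and 0.192).

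The same 5 members were higher in astrocyte-like cells than in the dividing class and the same 2 were lower, where 41.7% of genes were called (22.2% higher, 19.4% lower). S100a13 rose by 4.58 ± 0.35, S100b by 4.53 ± 0.36, S100a1 by 4.20 ± 0.33, S100a6 by 3.44 ± 0.34 and S100a16 by 2.58 ± 0.29, while S100a10 fell by 1.22 ± 0.34 and S100a11 by 1.62 ± 0.61. These comparisons share the astrocyte sums. Without tdTomato-negative library 2, S100a10 (-0.65, edgeR adjusted p = 0.532) and S100a11 (-1.41, edgeR adjusted p = 0.391) were not called. S100a11 was not called without library 1 (-1.59, edgeR adjusted p = 0.146) or by DESeq2 (-1.49, adjusted p = 0.133) either, nor at resolution 0.5 (-0.93, edgeR adjusted p = 0.154).

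Ependymal-like cells had S100a6, S100b, S100a11, S100a1 and S100a13 higher than neuroblast-like cells and S100a10 lower, with 37% of genes called (23.5% higher, 13.5% lower). S100a6 rose by 5.02 ± 0.40, S100b by 4.64 ± 0.34, S100a11 by 4.22 ± 0.35, S100a1 by 3.26 ± 0.41 and S100a13 by 1.46 ± 0.53 on the log2 scale, and S100a10 fell by 1.01 ± 0.32. The calls of S100a10 (-1.07 and -1.10, edgeR adjusted p = 0.17 and 0.185) and S100a13 (1.37 and 0.96, edgeR adjusted p = 0.175 and 0.537) were lost without tdTomato-negative library 1 and library 2. S100a13 was also not called without the library block (1.09, edgeR adjusted p = 0.0899) or the filter (1.46, edgeR adjusted p = 0.0574). Against the dividing class the same 5 were higher and 0 lower, with 37.6% of genes called (23.9% higher, 13.8% lower): S100b by 5.61 ± 0.36, S100a6 by 4.51 ± 0.35, S100a11 by 4.30 ± 0.34, S100a1 by 2.93 ± 0.37 and S100a13 by 1.73 ± 0.51. S100a13 was not called there without tdTomato-negative library 1 (1.45, edgeR adjusted p = 0.132) or library 2 (1.73, edgeR adjusted p = 0.182), and S100a16, not called at 0.78 ± 0.35, was called higher with RLE scaling (0.76, edgeR adjusted p = 0.0148).

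Between the 2 neurogenic classes S100a10 alone passed, where 15.1% of genes were called (7.55% higher, 7.58% lower). It had 112 and 190 CPM in dividing cells, against 401 and 420 CPM in neuroblast-like cells, and fell by 1.43 ± 0.27 (edgeR adjusted p = 2.05e-06; -1.19 and 0.307 without tdTomato-negative library 1). S100b (-0.97 ± 0.44, edgeR adjusted p = 0.125) was called lower with RLE scaling (-0.97, edgeR adjusted p = 0.0291) and without the tdTomato-positive library (-0.99, edgeR adjusted p = 0.0269). Dividing cells were deeper, with medians of 8478 and 6965 UMIs against 2835 and 2250, so shares of cells do not compare: 63.6% of dividing and 56.0% of neuroblast-like cells held S100a10 as counted, and 20.1% and 29.1% after thinning. S100b was low in both classes: it was found in 20.1% of dividing and 13.9% of neuroblast-like cells as counted, and in 1.95% and 5.26% after thinning.

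The third comparison splits the astroglia. One cluster of 69 cells (1 tdTomato-positive, 11 and 57 tdTomato-negative) was led by Id3 and Thbs4 and had 1268 CPM of Gfap, the astroglial filament gene. The other held 207 cells (15, 32 and 160), was led by Slc7a10, Htra1 and Ntm and had 188 CPM of Gfap. Both Gfap values are over all libraries summed. By library, Gfap was 1049 to 1913 CPM in the first cluster and 120 to 1102 CPM in the other, so the 2 overlapped. The value of 1102 CPM came from the 15 tdTomato-positive cells, which are thus not low in Gfap. S100a6 and S100b exchanged places between them. S100a6 had 909 and 959 CPM in Gfap-high astroglia of tdTomato-negative libraries 1 and 2, against 122 and 129 CPM in the other astroglia of those libraries and 167 CPM in tdTomato-positive ones. S100b had 47.8 and 189 CPM in Gfap-high astroglia, against 662 and 669 CPM in the others and 868 CPM in tdTomato-positive ones. For both genes the libraries of the 2 groups did not overlap.

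S100a6 rose by 2.68 ± 0.31 on the log2 scale (edgeR adjusted p = 6.45e-15) and S100b fell by 2.37 ± 0.38 (edgeR adjusted p = 8.31e-08), where 2.73% of 3732 genes were called (1.31% higher, 1.42% lower). DESeq2 called the same 2. Without tdTomato-negative library 2, which left 11 Gfap-high cells in 1 library whose spread is assumed to be that of the other sums, S100a6 was not called (2.52, edgeR adjusted p = 0.121). The other members were not called. S100a1 had 1004 and 910 CPM against 595 and 583 CPM in the same libraries (0.50 ± 0.27), S100a16 622 and 918 CPM against 473 and 679 CPM (0.28 ± 0.28) and S100a13 383 and 492 CPM against 527 and 348 CPM (0.02 ± 0.31). S100a10 had 287 and 82.0 CPM against 13.5 and 55.1 CPM (1.08 ± 0.56). S100a11 had 4 and 3 UMIs in all, a log2 ratio of 2.28 with a 95% counting interval of -0.28 to 5.05, and was called higher only at resolution 0.5 (2.68, edgeR adjusted p = 0.0265).

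Single cells showed the same exchange. Of 69 Gfap-high cells, 44 held S100a6 and no S100b, 2 held S100b and no S100a6, 9 held both and 14 neither. Of 207 other astroglia, 13 held S100a6 and no S100b, 107 held S100b and no S100a6, 44 held both and 43 neither. Thinned to 1000 UMIs, 56.1% of Gfap-high and 12% of the other cells held S100a6, and 12.1% and 43.0% held S100b. Median depth was 1668 and 2072 UMIs in Gfap-high cells, against 2387 and 2598 in the other cells of the same libraries. Ependymal markers summed to 622 and 320 CPM in Gfap-high cells, against 406 and 288 CPM, and the ependyma-rich S100a11 stood at 47.8 and 24.6 CPM, against 0 and 4.80 CPM. The part of these small sums in the S100a6 difference was not tested. Among ependymal-like cells, 16 of 234 held S100a6 and no S100b.

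**Figure D4:**
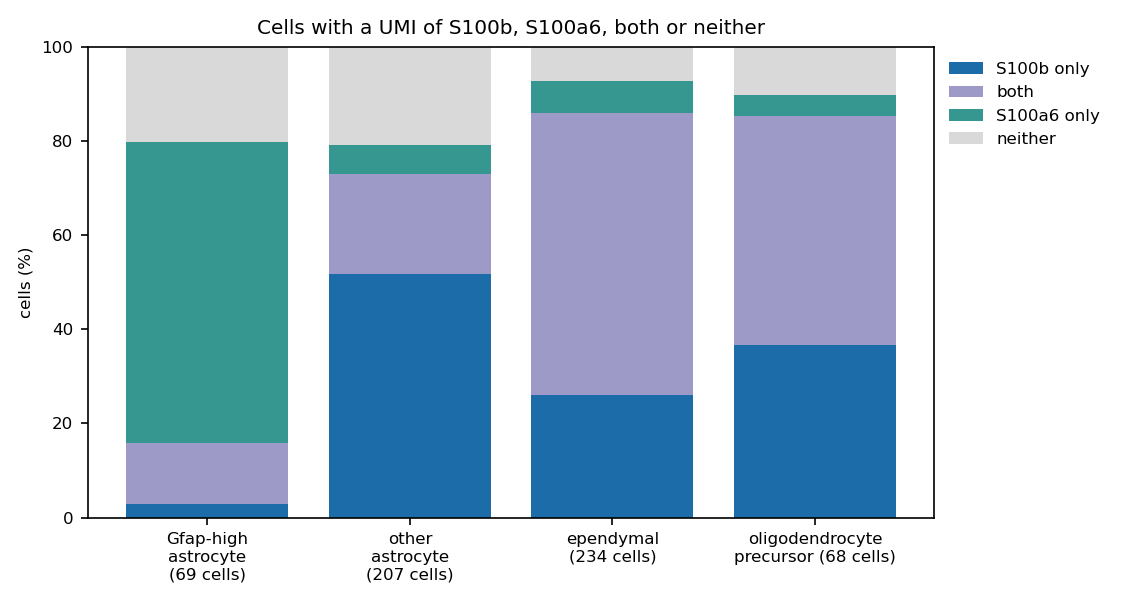
Share of cells (percent) with a UMI of S100b only, of both genes, of S100a6 only or of neither, in 4 populations. Most Gfap-high astroglia hold S100a6 only (44 of 69 cells), whereas S100b only is the largest group in the other astroglia (107 of 207).

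The fourth comparison follows the oligodendrocyte lineage. Precursor-like cells had S100a1 (1285 and 1234 CPM), S100a6 (454 and 415 CPM) and S100b (1692 and 1670 CPM) in tdTomato-negative libraries 1 and 2, against 260 and 364, 74.2 and 95.8, and 185 and 881 CPM in oligodendrocyte-like cells, which came from the tdTomato-positive sort and from tdTomato-negative library 2. The 3 genes were called higher (log2 fold changes 1.89 ± 0.35, 2.20 ± 0.48 and 1.32 ± 0.32; edgeR adjusted p = 3.57e-06, 0.000215 and 0.00109), where 8.21% of genes were called (4.34% higher, 3.87% lower). Those calls did not all hold under other ways of clustering and filtering the cells. At a clustering resolution of 2.0, 17 cells led by Bmp4, Enpp6 and Gpr17, genes of newly forming oligodendrocytes, left the precursor-like class for the oligodendrocyte-like one. The difference, precursor over oligodendrocyte, was then -0.80 for S100b, -1.02 for S100a6 and 0.57 for S100a1 (edgeR adjusted p = 0.0524, 0.0812 and 0.248). It was -0.82 and -1.17 for S100b and S100a6 under the stricter cell filter (edgeR adjusted p = 0.000517 and 0.0115, called lower) and -0.83 and -1.10 with Scrublet calls removed (edgeR adjusted p = 0.152 and 0.119). With odd-digit clustering it was -0.16 and -0.48 (edgeR adjusted p = 0.844 and 0.545). S100b was not called by DESeq2 (1.41, adjusted p = 0.0701) or without tdTomato-negative library 1 (1.11, edgeR adjusted p = 0.257). Without tdTomato-negative library 2, S100a1 (2.68, edgeR adjusted p = 0.0681) and S100a6 (2.57, edgeR adjusted p = 0.409) were not called, and without the tdTomato-positive library S100a13 was called higher (1.11, edgeR adjusted p = 0.0253).

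The 17 cells (6 and 11 in tdTomato-negative libraries 1 and 2) held the highest S100a6 of the lineage, and the highest S100b but for 4 mature cells of 1 library. S100b had 1012 and 1096 CPM in the 51 Pdgfra-led precursors, 2283 and 2631 CPM in the Enpp6/Bmp4-led cells, and 185, 2376 and 881 CPM in the 38 Mog/Mobp-led cells (tdTomato-positive first, then tdTomato-negative 1 and 2). S100a6 had 202 and 212 CPM, then 673 and 754 CPM, then 74.2, 317 and 95.8 CPM in the same order. A single Enpp6/Bmp4-led cell held up to 36 UMIs of S100b and 15 of S100a6. These cells were deeper, with medians of 5511.5 and 6970 UMIs, against 2303 and 2943 in the Pdgfra-led precursors of the same libraries. S100a1 had 1146 and 1299 CPM, then 1405 and 1123 CPM, then 260, 79.2 and 364 CPM, so it was lower in the Mog/Mobp-led cells of each library. S100a16 had 2630 and 1529 CPM, then 1258 and 1138 CPM, then 853, 713 and 977 CPM, lower at each step within both tdTomato-negative libraries. S100a13 ranged between 201 and 878 CPM over the 3 groups, and S100a10 was at most 71.1 CPM. The groups are small, the value of 2376 CPM rests on 4 cells, the oligodendrocyte-like tdTomato-positive cells had a median of 1633.5 UMIs and 13.5% mitochondrial UMIs, and these levels were not tested.

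**Figure D5:**
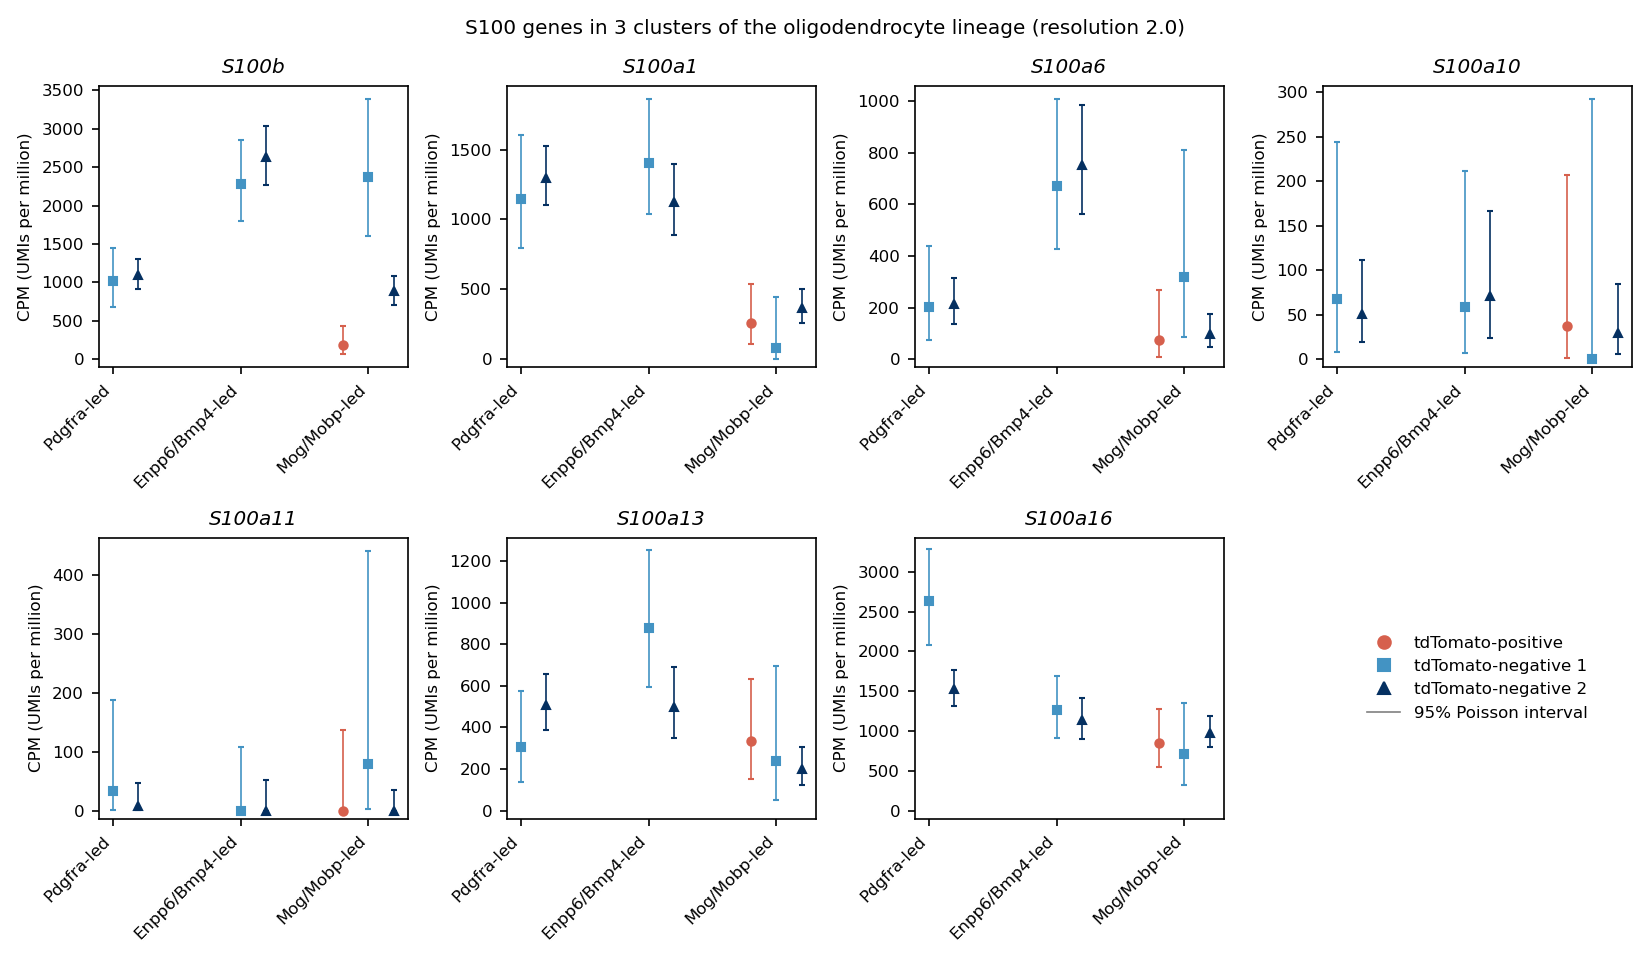
Level of each S100 gene (CPM, linear axis) in 3 clusters of the oligodendrocyte lineage found at resolution 2.0, from Pdgfra-led precursors to Mog/Mobp-led oligodendrocytes; points are libraries of any cell number, whiskers exact 95% Poisson intervals. S100a6 stands highest in the Enpp6/Bmp4-led cells, at 673 and 754 CPM, and so does S100b except that 4 Mog/Mobp-led cells reach 2376 CPM in tdTomato-negative library 1.

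Against oligodendrocyte-like cells, ependymal-like cells had 4 members higher and 2 lower, where 23.3% of genes were called (16.3% higher, 6.94% lower). S100a6 rose by 3.00 ± 0.42, S100a10 by 2.89 ± 0.64 and S100b by 1.12 ± 0.29, and S100a16 fell by 2.40 ± 0.32 and S100a13 by 2.05 ± 0.48 on the log2 scale. For S100b, the oligodendrocyte-like libraries had 185 and 881 CPM, a spread that an SE pooled over genes does not show. S100a11 was also called, with 548 UMIs in ependymal-like cells and 0 in the 2 oligodendrocyte sums tested, at least 4.89 higher on the log2 scale when that group is set at a floor of 3 counts. With the 4 untested oligodendrocyte-like cells added, it had 548 UMIs and 1 UMI, a log2 ratio of 6.61 with a 95% counting interval of 4.13 to 11.9. The call of S100b was lost in DESeq2 (1.13, adjusted p = 0.0715), without the tdTomato-positive library (0.52, edgeR adjusted p = 0.0903), at resolution 2.0 (-0.02, edgeR adjusted p = 0.972), under the stricter cell filter (-0.10, edgeR adjusted p = 0.775), with odd-digit clustering (0.37, edgeR adjusted p = 0.268) and with Scrublet calls removed (0.028, edgeR adjusted p = 0.972). So was that of S100a10 without tdTomato-negative library 2 (2.40, edgeR adjusted p = 0.22). S100a6 was not called under the stricter cell filter (0.68, edgeR adjusted p = 0.0518). S100a1, not called at -0.11 ± 0.35, was called lower under that filter (-1.60), at resolution 2.0 (-1.11), with odd-digit clustering (-0.84) and with Scrublet calls removed (-1.02). Astrocyte-like cells had S100a6 (1.92 ± 0.46, edgeR adjusted p = 0.000525) and S100a1 (1.16 ± 0.33, edgeR adjusted p = 0.00528) higher than oligodendrocyte-like cells and 0 lower, where 14.3% of genes were called (8.21% higher, 6.12% lower). Neither was called at resolution 2.0 (-0.091 and 0.095, edgeR adjusted p = 0.888 and 0.861), where S100b was lower (-1.12, edgeR adjusted p = 0.000137), or without tdTomato-negative library 2 (2.10 and 1.80, edgeR adjusted p = 0.317 and 0.163), and S100a1 was not without library 1 (1.07, edgeR adjusted p = 0.147), while without the tdTomato-positive library S100a13 was called higher (1.08, edgeR adjusted p = 0.014).

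The sort itself compares tdTomato-positive with tdTomato-negative cells. Over all kept cells, S100a11 had 557 CPM in the tdTomato-positive library, against 50.7 and 65.5 CPM in the tdTomato-negative ones, S100a6 700 CPM against 143 and 118 CPM, and S100b 930 CPM against 280 and 299.5 CPM. S100a16 had 167 CPM against 311 and 323 CPM. In edgeR, S100a11 rose by 3.25 ± 0.30, S100a6 by 2.48 ± 0.30 and S100b by 1.71 ± 0.30, and S100a16 fell by 0.89 ± 0.33, where 42.5% of 5434 genes were called (23.4% higher, 19.1% lower). S100a16 was not called by DESeq2 (-0.85, adjusted p = 0.103) or without the filter (-1.01, edgeR adjusted p = 0.0623), and S100a1 (0.66 ± 0.31, edgeR adjusted p = 0.0692) was called higher with RLE scaling (0.70, edgeR adjusted p = 0.023). Ependymal-like cells were 177 of the 252 kept tdTomato-positive cells, against 12 of 256 and 45 of 1121 kept tdTomato-negative cells, so cell makeup and level cannot be told apart here.

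Within ependymal-like cells alone, 0 of 7 members were called between gates by edgeR and by DESeq2, where edgeR called 0.196% of 2041 genes (0.098% higher, 0.098% lower). At an unadjusted p under 0.05, edgeR had 2 members (S100a1 and S100a6) and DESeq2 had 0. S100a11 had 653 CPM in tdTomato-positive ependymal-like cells, against 556 and 800 CPM in tdTomato-negative ones (-0.03 ± 0.29), and S100b 1069 CPM against 979 and 1375 CPM (-0.09 ± 0.30). S100a1 had 326 CPM against 156 and 213 CPM (0.80 ± 0.31, edgeR adjusted p = 0.707). S100a6 had 830 CPM against 868 and 431 CPM (0.63 ± 0.30, edgeR adjusted p = 1), and its value was 0.96 without tdTomato-negative library 1 and 0.083 without library 2. This fit of 1 library against 2 has 1 residual degree of freedom and assumes that the lone library varies like the others. The 2 gates therefore cannot be said to hold ependymal cells of equal S100 levels.

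Genes of the same pathway were counted from 4 lists. A gene could pass the filter on low counts through 1 class in which it is high, as Anxa1 and Calb1 could through ependymal-like cells. The counts of called list genes below, and the shares of all genes beside them, lean towards such genes and are descriptions. Of 12 annexins, the calcium- and membrane-binding partners of S100a10, S100a11 and S100a6, 7 were tested and 4 were higher in ependymal-like than in astrocyte-like cells, with 0 lower, where 17.1% of all genes tested were higher and 10% lower (median log2 fold change 2.66, against 0.08 over all genes tested). Anxa2, the partner of S100a10, averaged 535 ± 115 CPM in ependymal-like cells and 35.8 ± 22.9 CPM in astrocyte-like cells (4.16 ± 0.37). In neuroblast-like cells, where S100a10 was highest, Anxa2 averaged only 9.87 ± 4.65 CPM, and in the dividing class 12.3 ± 9.86 CPM. Anxa11 averaged 241 ± 31.0 CPM in ependymal-like and 15.7 ± 13.5 CPM in astrocyte-like cells (4.69 ± 0.53). Anxa1, the partner of S100a11, averaged 68.3 ± 40.4 CPM in ependymal-like cells and had 0 UMIs in astrocyte-like cells, at least 4.23 higher on the log2 scale when the group is set at a floor of 3 counts. Between astrocyte-like and neuroblast-like cells 4 annexins were higher and 0 lower, where 19.6% of all genes were higher and 16.5% lower (median 1.75, or 1.49 with Anxa11 at its bound, against 0.01). They include Anxa5 (3.50 ± 0.50), Anxa6 (2.16 ± 0.59) and Anxa11, with 5 UMIs against 0, at least 1.19 higher.

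Of 20 other binding partners of S100 proteins, 16 were tested, and 7 were higher and 3 lower in ependymal-like than in astrocyte-like cells, against 17.1% and 10% of all genes (median 0.46, against 0.08). The called genes with the largest changes were Ahnak, the scaffold bound by S100a10 with annexin A2 (3.64 ± 0.57), Plat, tissue plasminogen activator (3.19 ± 0.57), and Mdm2, the p53 ubiquitin ligase (2.71 ± 0.54). In the other direction they were Mapt, the microtubule protein tau (-2.76 ± 0.52), Fgf1, which S100a13 binds (-2.01 ± 0.77), and the kinase Stk38 (-1.77 ± 0.70). Fgf1 and S100a13 were thus lower in the same class. They did not go together in the oligodendrocyte lineage. Precursor-like cells, highest in S100a13, had 0 UMIs of Fgf1, against 17 in the oligodendrocyte-like sums. S100a13 averaged 558 CPM in precursor-like and 268 CPM in oligodendrocyte-like cells. Between astrocyte-like and neuroblast-like cells 2 were higher and 6 lower, against 19.6% and 16.5% of all genes (median -0.71, against 0.01). Atp2a2, a calcium pump of the endoplasmic reticulum, was higher (2.16 ± 0.37), as was Fgf1, with 27 UMIs against 0 (at least 3.62). Gap43 (-3.64 ± 0.48), a growth cone protein, Iqgap1 (-2.56 ± 0.56) and Mdm2 (-1.63 ± 0.54) were lower.

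Of 24 other cytosolic EF-hand genes, 18 were tested, and 11 were higher and 2 lower in ependymal-like than in astrocyte-like cells, against 17.1% and 10% of all genes (median 1.45, against 0.08). Calml4 (489.5 ± 71.5 CPM, against 12.8 ± 16.2 CPM; 5.97 ± 0.46) and the centrin Cetn4 (398 ± 78.9 CPM, against 6.60 ± 5.75 CPM; 5.46 ± 0.47) were among them. So was Calb1, with 223 UMIs in ependymal-like cells and 1 in astrocyte-like cells, a log2 ratio of 7.52 (95% counting interval 5.03 to 12.8). Efhd2 was lower (-2.98 ± 0.63), and so was Efhd1, with 2 and 27 UMIs, a log2 ratio of -4.03 (95% counting interval -7.15 to -2.04). Between astrocyte-like and neuroblast-like cells 3 were higher (Efhd1 3.21 ± 0.72, Efhd2 2.26 ± 0.44 and Cib1 2.11 ± 0.59) and 5 lower, against 19.6% and 16.5% of all genes (median 0.14, against 0.01), so the share higher was near that of all genes. The lower ones include Ncs1 (-2.45 ± 0.58), Calm2 (-1.95 ± 0.28) and Calb2, with 1 UMI and 83 UMIs (0 and 109 CPM in neuroblast-like cells of tdTomato-negative libraries 1 and 2), a log2 ratio of -5.92 (95% counting interval -11.2 to -3.41). Of the 10 other S100 genes in the files, S100a4 alone passed the filter on low counts. It was not called in either comparison.

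Levels of the members were also set beside each other, and beside all 3465 genes outside the family with a mean of at least 50 CPM, over the 18 sums of library and class. Sums of 1 library share cells, depth and preparation, and those of 1 class share cell type, so correlations of log2(CPM + 20) are descriptions. S100b and S100a6 were alike (r = 0.92) although they parted between the 2 kinds of astroglia, which these sums join. S100a1 and S100a13, the pair with facing starts, had r = 0.89. That value was not particular to them, since S100a1 and S100b, on different chromosomes, had r = 0.88. S100a10 and S100a13 had the lowest value of any pair, r = -0.66. The genes most like S100a11 were Dmkn (0.94), Elof1 (0.94) and Cdhr4 (0.93). S100a6 was most like Ramp1 (0.95), Itm2c (0.93) and Mro (0.92), and S100b like Ramp1 (0.88), Mif4gd (0.87) and Dst (0.86). S100a13 was most like Gng12 (0.95), Pcyt2 (0.92) and Zcchc24 (0.91), S100a1 like Gng12 (0.90), Timp4 (0.88) and Gpr37l1 (0.87), and S100a16 like Wscd1 (0.90), Manbal (0.90) and Ptn (0.89). S100a10 was most like Mthfd2l (0.88), Zbtb20 (0.88) and Gm17750 (0.86).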

How the data were processed

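The authors deposited raw UMI counts, not normalised, as 1 matrix per library of 10x Chromium 3′ v2 chemistry, per the labels. Their tools, per the submitters' processing notes, include Seurat 1.4.0.15, STAR and Cell Ranger, and the builds named are GRCm38.p5 and mm10. How cells were called and whether counting used strand is not given in the sources used here.

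Barcodes were kept if they held at least 300 genes and no more than 25% of their UMIs were mitochondrial. Cells were clustered together (scanpy 1.11.5, igraph 0.11.9; 1000 variable genes, 20 components, 15 neighbours, Leiden resolution 1.0) on 14077 genes, namely those with an even last digit of the Ensembl number and 153 markers, without S100 genes, Gfap and the lists. Classes were named from 13 marker lists, of which those for choroid plexus epithelium, fibroblasts, mural and erythroid cells named no cluster. From the ependymal cluster, 8 cells with at least as many mural as ependymal marker UMIs were set aside, a rule chosen after seeing the data. No doublets were removed; Scrublet marked 9, 2 and 3 cells.

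Counts summed per library and class (at least 10 cells) were tested with edgeR 4.0.16 in R 4.3.3 (quasi-likelihood, TMM, filterByExpr, library as block, 18 sums and 7 residual degrees of freedom; 20 and 8 with astroglia split), on the odd-digit genes plus the lists, without the markers. The block follows from sums of 1 library sharing a preparation. SE is the absolute log2 fold change over the square root of F. The p-values follow a normal curve for the log2 fold change over its SE. Spread was thus in effect pooled over genes, and the residual degrees of freedom hardly enter the p-values. DESeq2 1.42.0 was an alternative. The tests were tried on simulated data. Of genes with a simulated absolute log2 fold change of 1, 30.3% were recovered in ependymal over astrocyte and 9.21% in ependymal over oligodendrocyte. At 2, 66.7% and 35.7% were. For genes of at least 50 CPM these shares were 47.6% and 16.7% at 1, and 82.4% and 58.8% at 2. A gene that was not called may therefore still differ. Intervals are exact 95% Poisson or Clopper-Pearson ones, and these and the floor of 3 counts cover counting error only. Thinning to 1000 UMIs left out 41, 12 and 6 cells. The members and lists were chosen with earlier results of these data known. Named list genes are the up to 3 called ones per direction with the largest change in ependymal over astrocyte and astrocyte over neuroblast. Genes of like pattern are the 3 of highest r.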

Additional observations from a re-analysis of the deposited data

How the results depend on the processing

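Of the comparisons, ependymal over astrocyte, dividing, neuroblast and oligodendrocyte, astrocyte over dividing and neuroblast, and both gate comparisons kept their counts of called members within 1.5-fold under every alternative run, although single calls changed. The library block was tested by leaving it out: astrocyte over oligodendrocyte then had 1 called member in place of 2, and the calls of S100a13 in ependymal over neuroblast (1.09) and S100a1 in astrocyte over oligodendrocyte (1.05) were lost, with 68 of 70 gene results unchanged in call. No paired analysis was possible for the gate comparisons because the gates share only replicate number 1, and 3 libraries with both gate and block leave no residual degrees of freedom. Astrocyte over oligodendrocyte also had 1 called member under the stricter cell filter (at least 500 genes, at most 10% mitochondrial UMIs), at resolution 2.0 and with Scrublet calls removed, and 0 with odd-digit clustering (0 to 3 leaving out 1 library each). Precursor over oligodendrocyte had 0 at resolution 2.0 and with Scrublet calls removed and 1 with odd-digit clustering (1 to 4 leaving out 1 library each), against 3. Dividing over neuroblast had 2 with RLE scaling (0 to 2 leaving out 1 library each), against 1, and Gfap-high over other astrocyte had 1 without tdTomato-negative library 2 (1 to 2), against 2.

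Among genes called in either setting, signs turned only in the oligodendrocyte comparisons. At resolution 2.0, 17 cells changed class; the cause was not tested for the other alternatives. Values that passed in neither setting also crossed 0 in other comparisons. In ependymal over oligodendrocyte S100b had -0.10 under the stricter filter and -0.02 at resolution 2.0. In astrocyte over oligodendrocyte S100b had -1.18, -1.12 and -1.08 and S100a6 -0.019, -0.091 and -0.17 under the stricter filter, resolution 2.0 and Scrublet removal. In precursor over oligodendrocyte S100b had -0.82, -0.80, -0.16 and -0.83 and S100a6 -1.17, -1.02, -0.48 and -1.10 under the stricter filter, resolution 2.0, odd-digit clustering and Scrublet removal. Keeping the 8 mural-marked cells, an alternative added after seeing the data, left all 84 gene results in their direction and call. Oligodendrocyte-like cells of tdTomato-negative library 1 (4) and neuroblast-like cells of the tdTomato-positive library (1) were too few for a sum, and no gate comparison can be made without the tdTomato-positive library.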

Other observations

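Populations outside the comparisons also differed in their S100 genes. Young neuron-like cells (357, led by Prokr2, Pbx3 and Foxp2) had S100a10 as their leading member, with 242 and 288 CPM in tdTomato-negative libraries 1 and 2, and the 7 genes took 532 and 598 CPM together. An unnamed cluster of 99 cells led by Ung, Btg2 and Mcm2 had S100a16 at 285 and 219.5 CPM and S100a10 at 133 and 162 CPM. Its S100a6, at 151 and 74.8 CPM, lay above both values of the dividing class (15.4 and 33.0 CPM), with up to 10 UMIs in 1 cell.

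Endothelial-like (20) and microglia-like cells (14) came from the tdTomato-positive library alone, so each may be that library. Endothelial-like cells had 437 CPM of S100a16 (15 UMIs), 320.5 CPM of S100a13 (11 UMIs) and 204 CPM of S100a11 (7 UMIs). Microglia-like cells had 0 UMIs of S100a10 and S100a16, which allows up to 115 CPM for each, and no more than 3 UMIs of any member. The 8 mural-marked cells set aside from the ependymal cluster held 5 UMIs of S100a11 and 1 each of S100b and S100a1. The 7 genes took 885 CPM together in them, 71.4% of it S100a11. Whether that S100a11 level differs from that of ependymal-like cells cannot be told from so few UMIs.

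Of the 10 other S100 genes, S100a4 had 53 UMIs and S100a3 had 30 over all kept cells. S100a5, S100a7a, S100a8 and S100a9 had 1 to 4 UMIs each, and S100a2, S100a14, S100g and S100z had 0. S100a3 was not tested, and 10 of its UMIs lay in 68 precursor-like cells (39.7 CPM) and 12 in 234 ependymal-like cells (14.9 CPM).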
